A study of Arabis alpina with 9 samples.

Results

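Leaf and shoot apex of the Arabis alpina eop089 mutant were compared at 5 weeks of age, over all genes of the count table. Arabis alpina is a perennial of the mustard family, related to the annual Arabidopsis thaliana. All plants carried the eop089 mutation, which the labels give by its line name only, in the accession Pajares, and all were grown in long days. The leaf libraries were made from leaves 5 and 6 and the apex libraries from dissected shoot apices, with 3 libraries each, so that 6 of the 9 libraries of the series enter the contrast. The remaining 3, from apices of the same mutant at 3 weeks, shared the estimate of the spread. No library of another genotype was analysed here. The labels give no harvest time and leave the origin of the replicates unsaid, so the spread that the p-values measure is that between these libraries and may be technical.

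A dissected shoot apex holds the shoot meristem, a small group of dividing stem cells, together with the youngest leaf primordia that arise on its flanks. An expanded leaf has left division behind, fixes carbon, exports sugar through the phloem and, in the mustard family, stores glucosinolates and the myrosinase enzymes that release their toxic products. Flowering is tied to both places: the florigen FT is made in the leaf phloem and moves to the apex, where its relative TFL1 holds back the change to flowers.

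Each of the 6 libraries held between 11859813 and 13382460 counts in genes. The 10 most abundant entries took between 12.3% and 12.7% of the leaf counts and between 2.88% and 3.02% of the apex counts. Reads that met no annotated feature made up 7.94% to 8.3% of the deposited counts in the leaf and 13.9% to 16.3% in the apex. Correlations of log2 CPM across genes between libraries of an organ were 0.986 to 0.991 (genes are not independent replicates), and no pair agreed within counting noise. All levels below are CPM, the counts of a gene scaled to a fixed library size after adjustment by TMM, a method that takes most genes as unchanged. Its factors were 0.694 to 0.704 in the leaf and 1.23 to 1.26 in the apex. Since gene lengths were not used, levels are compared between samples, and between genes CPM served only to choose which to name. In whole organs more RNA per cell and more cells of a type cannot be told apart.

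Most of the transcriptome differed between the organs. Of 34220 gene entries 20633 passed the expression filter, and 16316 of these (79.1%) had a Benjamini-Hochberg adjusted p under 0.05 by the quasi-likelihood test of edgeR. In the leaf 7659 entries (37.1%) were higher and 8657 (42.0%) lower than in the apex. With a change of 2-fold or more, 4412 entries were higher and 4682 lower, which are 21.4% and 22.7% of those tested. Leaf and apex libraries did not overlap in 37.4% of entries with the leaf above and 42.3% with the apex above. At 16-fold or more the leaf side was the longer, with 815 entries against 626. In raw counts, 184 entries had no count in any leaf library and at least 10 in every apex library. The other way round there were 87 entries. These cutoffs were not scaled, and at the same CPM a gene has fewer counts in a leaf library than in an apex library. The excess of entries without leaf counts is therefore not comparable with the counts by fold, and the part of depth in it was not tested. The balance of directions rests on TMM: with library totals alone 4026 entries were higher and 14239 lower, and the median log2 fold change of all entries moved from -0.10 to -0.93. Directions below are relative to TMM, and genes described below whose sign turned with library totals are named as such.

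Names were available only for genes that the authors listed as changed in the mutant, since the count table holds Arabis IDs. Of 1487 listed IDs 1079 were paired with an Arabidopsis gene, 1077 of these had a single entry in the count table and 975 were tested. This named set leaned to the leaf, with 57.0% higher and 28.4% lower and a median log2 fold change of 0.90, against -0.10 over all entries. The count of each gene list below is therefore to be read against these shares. It is also to be read against the 37.1% higher and 42.0% lower of all entries, whether or not the shares are repeated there. Some genes belong to several lists and are counted in each. Genes chosen as changed in the mutant leaf or 5-week apex were chosen partly on these libraries. Roles given below are those known from Arabidopsis.

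**Figure D1:**
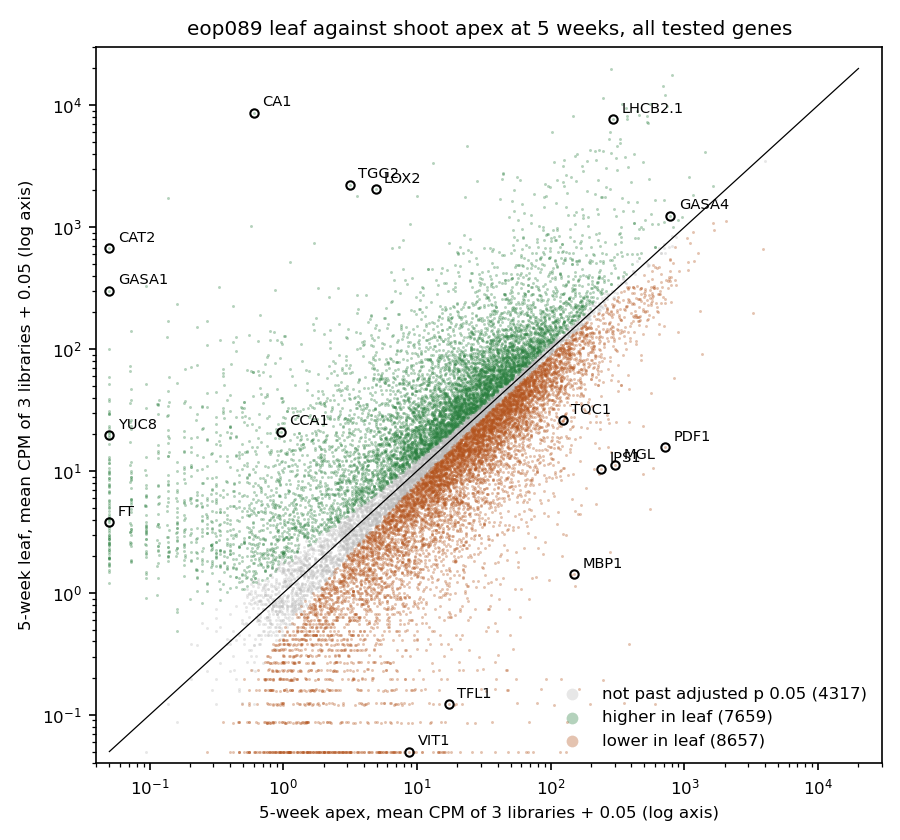
Mean CPM of the 3 leaf libraries against that of the 3 apex libraries for the 20633 tested entries, on log axes with 0.05 added to each mean. Green points are higher (7659) and brown points lower (8657) in the leaf at an adjusted p under 0.05, grey points are the remaining entries, the line marks equal levels, and the circled genes are described in the text.

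Few organ markers could be named, and of these CA1 and CAT2 were higher in the leaf. TFL1 and TEL1 were higher in the apex. They were not among the markers set for the organs and come from the flowering and meristem gene lists. CA1 (Aa_G593160), a carbonic anhydrase of the chloroplast, stood at 0.322, 0.334 and 0.991 CPM in the apex and 8950.3, 8617 and 8475 CPM in the leaf (replicates 1 to 3, here and below). The organs lay far apart, and the log2 fold change was 13.93 (SE 0.60, adjusted p = 1.66e-12 by edgeR), and without apex replicate 3 it was 14.64. CAT2 (Aa_G180310), the catalase of photorespiration, had no count in any of the apex libraries and 710.4, 685 and 627 CPM in the leaf. Against 3 counts over the apex group the leaf level was at least 10262-fold higher (edgeR adjusted p = 9.45e-13). On the apex side TFL1 (Aa_G789610) stood at 14.4, 19.6 and 17.5 CPM, with only 2 counts in the leaf libraries together. TEL1 (Aa_G83280), an RNA-binding protein of the shoot meristem and young primordia, stood at 0.645, 1.33 and 0.991 CPM in the apex and had 1 count in the leaf, a ratio of apex over leaf of 27.0 (95% counting interval 4.61 to 1092). Of the 2 tested genes of the list for shoot meristem, leaf polarity and organ boundary, TEL1 was lower in the leaf. WOX1, given below, did not pass. STM and WUS were not analysed here.

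Most named genes of photosynthesis and carbon use were higher in the leaf. All 3 named genes of carbon fixation and photorespiration rose, as did the single named light-harvesting gene. The 4 of chlorophyll and carotenoid metabolism, PORA, NYC1, NCED3 and NCED5, rose too, and NCED3 and NCED5 are counted again with abscisic acid below. All 4 of phloem and sugar transport rose, as did 6 of 8 of starch and sucrose metabolism. The medians of the lists with several genes were 13.93, 1.52, 4.61 and 1.32 on the log2 scale, against 0.90 for named genes as a whole, and with CAT2 at its bound the first of them was 13.3. LHCB2.1 (Aa_G211280), a chlorophyll-binding protein of the photosystem II antenna, stood at 136, 423 and 322 CPM in the apex and 7748, 7475 and 7863 CPM in the leaf. Its leaf libraries were nearly level while apex replicate 1 was the lowest of its group, and the log2 fold change was 4.71 (SE 0.30, adjusted p = 3.01e-10 by edgeR). This gene belongs to a family of close copies among which the counting may have divided reads. CA2, a second carbonic anhydrase, followed CA1 with 1007, 978 and 1066 CPM in the leaf and 0.322, 0.400 and 0.859 CPM in the apex (log2 fold change 10.89, SE 0.28, adjusted p = 3.47e-15 by edgeR).

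Among the genes that move and convert sugar, SUC2, SUC1 and ATSPS4F had wide gaps between the organs. SUC2 (Aa_G371930), which loads sucrose into the phloem, stood at 15.5, 8.67 and 9.12 CPM in the apex and 317, 335 and 302 CPM in the leaf, and its relative SUC1 at 6.64, 6.34 and 8.79 CPM in the apex and 199.8, 217 and 162 CPM in the leaf. The organs did not overlap for either gene, with log2 fold changes of 4.84 (SE 0.15, adjusted p = 2.66e-14 by edgeR) for SUC2 and 4.73 (SE 0.14, adjusted p = 1.78e-14 by edgeR) for SUC1. ATSPS4F (Aa_G453790), a sucrose phosphate synthase, had a log2 fold change of 5.97 (SE 0.12, adjusted p = 3.83e-16 by edgeR), from 2.77, 2.34 and 2.58 CPM in the apex to 175, 169 and 141 CPM in the leaf. GBSS1, the starch synthase that makes amylose, rose by less and varied more, from 18.3, 59.7 and 44.3 CPM in the apex to 170.1, 178 and 202 CPM in the leaf (log2 fold change 2.17, SE 0.24, adjusted p = 4.01e-07 by edgeR). TPS9 and TPS11, of the trehalose phosphate synthase family, had log2 fold changes of 1.34 (SE 0.09) and 1.296 (SE 0.08). Both genes that fell, GolS1 and TPPF, act in the synthesis of galactinol and of trehalose.

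NIA1, CAX1 and GER3 were also higher in the leaf. NIA1 (Aa_G121580), a nitrate reductase, stood at 14.1, 16.5 and 17.2 CPM in the apex and 328, 329 and 385 CPM in the leaf, with leaf replicate 3 the highest (log2 fold change 4.44, SE 0.25, adjusted p = 5.78e-11 by edgeR). CAX1, which carries calcium into the vacuole, stood at 172, 134 and 151 CPM in the apex and 1078, 1067 and 1044 CPM in the leaf (log2 fold change 2.80, SE 0.11, adjusted p = 3.47e-13 by edgeR). GER3, a germin-like protein of the cell wall, stood at 291, 261 and 281 CPM in the apex and 1825, 1764 and 2606 CPM in the leaf, again with leaf replicate 3 on top (log2 fold change 2.89, SE 0.13, adjusted p = 4.27e-12 by edgeR).

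**Figure D2:**
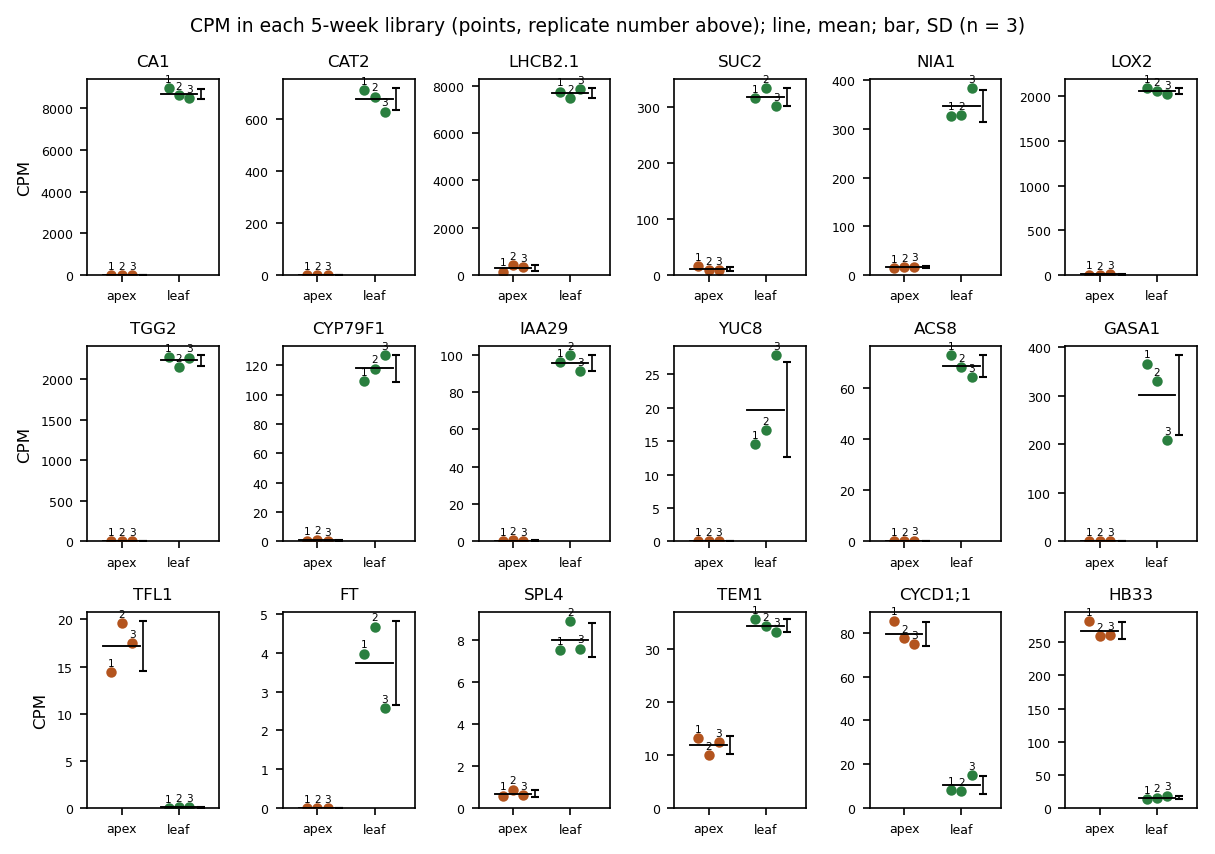
CPM of 18 named genes in each of the 3 apex (brown) and 3 leaf (green) libraries, with the replicate number above each point, the group mean as a line and its SD (n = 3) as a bar beside it. No gene shown has overlapping organs, and FT, YUC8, GASA1 and CAT2 have no count in any apex library.

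Of 3 named cell division genes 2 were lower and 1 higher in the leaf, with a median log2 fold change of -2.38, and the ribosome biogenesis gene FIB2 and several transcription factor genes were lower too. CYCD1;1 (Aa_G222010), a D-type cyclin that starts the cell cycle, stood at 85.6, 77.8 and 74.9 CPM in the apex and 8.06, 7.75 and 15.1 CPM in the leaf, and CYCB1;3, a mitotic cyclin, at 49.3, 35.8 and 38.5 CPM in the apex and 6.74, 7.01 and 9.93 CPM in the leaf. Leaf replicate 3 was the highest leaf library for both, without reaching the apex, and the log2 fold changes were -2.95 (SE 0.15, adjusted p = 1.57e-11 by edgeR) and -2.38 (SE 0.15, adjusted p = 1.77e-10 by edgeR). The third named gene of the cell division list, the P-type cyclin CYCP4;1, was higher in the leaf at 1.00 (SE 0.13, adjusted p = 1.72e-06 by edgeR), a call that was lost with library totals, at 0.16. FIB2, which encodes fibrillarin, a nucleolar protein that modifies ribosomal RNA, stood at 143, 98.4 and 117 CPM in the apex and 6.52, 9.56 and 9.15 CPM in the leaf (log2 fold change -3.82, SE 0.15, adjusted p = 5.10e-13 by edgeR).

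The zinc finger homeodomain genes HB33 (Aa_G348840), HB28 (Aa_G11470) and HB31 (Aa_G117710) were all lower in the leaf. HB33 stood at 282, 259 and 261 CPM in the apex and 13.0, 15.5 and 18.4 CPM in the leaf. HB28 stood at 67.4, 79.7 and 66.6 CPM in the apex and 4.09, 1.91 and 6.03 CPM in the leaf, and HB31 at 49.1, 52.2 and 47.5 CPM in the apex and 5.96, 6.48 and 9.49 CPM in the leaf. The groups lay far apart for each gene, with log2 fold changes of -4.09 (SE 0.10, adjusted p = 1.80e-15 by edgeR), -4.16 (SE 0.18, adjusted p = 1.95e-12 by edgeR) and -2.76 (SE 0.12, adjusted p = 2.95e-12 by edgeR). FIB2, these 3 genes and SMXL5 were chosen after their values were seen. SMXL5, which acts in the formation of phloem, stood at 146, 176 and 177 CPM in the apex and 9.61, 11.4 and 14.96 CPM in the leaf (log2 fold change -3.80, SE 0.13, adjusted p = 9.31e-14 by edgeR). LBD41, a LOB-domain transcription factor, stood at 52.6, 59.3 and 53.4 CPM in the apex and 2.65, 2.55 and 1.12 CPM in the leaf (log2 fold change -4.70, SE 0.16, adjusted p = 8.23e-14 by edgeR). WOX1, a homeobox gene of the leaf margin, did not pass at 0.25 (SE 0.19, adjusted p = 0.233 by edgeR), took the other sign with library totals, at -0.58, and passed without apex replicate 3, at 0.464.

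The genes with the largest drops in the leaf included a vacuolar transporter and enzymes. VIT1 (Aa_G243980), which carries iron into the vacuole, stood at 10.8, 7.47 and 7.73 CPM in the apex and had no count in the leaf, so that its leaf level was at least 79.5-fold lower against 3 counts over the group (edgeR adjusted p = 1.64e-09). AT5G19100 (Aa_G62790) stood at 19.4, 9.34 and 14.1 CPM in the apex, also with no count in the leaf, and was at least 131-fold lower there (edgeR adjusted p = 4.85e-09). MBP1 (Aa_G364650), a myrosinase-binding protein, fell from 174, 126 and 149.97 CPM in the apex to 1.33, 1.38 and 1.45 CPM in the leaf (log2 fold change -6.75, SE 0.17, adjusted p = 2.43e-15 by edgeR). MGL, a methionine gamma-lyase, stood at 282, 318 and 311 CPM in the apex and 11.93, 12.4 and 9.04 CPM in the leaf (log2 fold change -4.77, SE 0.12, adjusted p = 2.09e-15 by edgeR). The BTB/TAZ gene bt5 stood at 2.00, 2.54 and 4.096 CPM in the apex with 1 count in the leaf, a ratio of apex over leaf of 78.7 (95% counting interval 13.9 to 3133). GAT1_2.1, a glutamine amidotransferase-like protein, stood at 1.55, 1.07 and 3.303 CPM in the apex with no count in the leaf, at least 18.03-fold lower. Apex replicate 3 was the highest for GAT1_2.1, and without it the fitted log2 fold change, which depends on the fit, moved from -7.70 to -7.09. Of the genes named for their CPM in the apex, AT1G62480 stood at 3412, 3045 and 3339.7 CPM in the apex and 173, 175 and 248 CPM in the leaf. The cysteine proteinase gene CP2 stood at 703, 902 and 887 CPM in the apex and 53.2, 52.6 and 66.6 CPM in the leaf, and the glycine-rich RNA-binding protein gene RBGA3 at 836, 543 and 750.3 CPM in the apex and 233, 232 and 252 CPM in the leaf. Their log2 fold changes were -4.04 (SE 0.14), -3.85 (SE 0.12) and -1.57 (SE 0.12).

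Named epidermal genes such as PDF1 and KCS19 were lower in the leaf, and their leaf levels differed between replicates. Of 7 tested genes of the epidermis and cuticle list 4 fell, 1 rose and 2 did not pass, with a median log2 fold change of -0.36. Of all entries 42.0% were lower in the leaf, and of named genes 28.4%. Without leaf replicate 3 the list had 2 genes that rose. PDF1 (Aa_G199990), a marker of the outermost cell layer of the meristem, stood at 836, 647 and 659.9 CPM in the apex and 4.64, 2.87 and 39.2 CPM in the leaf. Leaf replicate 3 lay far above the other leaf replicates and far below every apex library. The log2 fold change was -5.53 (SE 0.50, adjusted p = 3.18e-08 by edgeR), and without leaf replicate 3 it was -7.58. DESeq2 gave this gene no adjusted p. KCS19, a ketoacyl-CoA synthase of fatty acid elongation, stood at 40.2, 31.0 and 31.1 CPM in the apex and 1.88, 0.531 and 5.69 CPM in the leaf, a log2 fold change of -3.67 (SE 0.30, adjusted p = 7.39e-09 by edgeR), and without leaf replicate 3 it was -4.83. GPAT6, an acyltransferase of cutin synthesis, stood at 6.70, 4.204 and 4.89 CPM in the apex and 1.105, 0.743 and 2.79 CPM in the leaf, a log2 fold change of -1.78 (SE 0.37, adjusted p = 3.11e-04 by edgeR), and without leaf replicate 3 it was -2.51. The fourth gene that fell, the cutin hydroxylase gene CYP86A8, changed by -0.36 (SE 0.14, adjusted p = 0.0263 by edgeR), and this call was lost when leaf replicate 2 or apex replicate 1 was left out (-0.244 and -0.264) and with RLE size factors or DESeq2 (-0.305 and -0.311).

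KCS8, of the same family as KCS19, stood at 43.4, 36.1 and 35.9 CPM in the apex and 23.1, 27.0 and 58.9 CPM in the leaf, so that leaf replicate 3 lay above all apex libraries and the other leaf replicates below them. It did not pass (log2 fold change -0.09, SE 0.23, adjusted p = 0.735 by edgeR), and it was lower in the leaf without leaf replicate 3, at -0.62, and with library totals, at -0.918. CER1, which makes the alkanes of leaf wax, did not pass at 0.10 (SE 0.20, adjusted p = 0.671 by edgeR), and with library totals it was lower in the leaf and past the threshold, at -0.73. LTP4, a lipid transfer protein, was the gene that rose, from 3.93, 1.802 and 1.19 CPM in the apex to 109.7, 105 and 23.1 CPM in the leaf, where replicate 3 was the lowest. Its log2 fold change was 5.09 (SE 0.51, adjusted p = 9.89e-08 by edgeR), and without apex replicate 1 it was 5.72.

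The stomatal genes diverged. TMM (Aa_G389040), a receptor that spaces stomata in the developing epidermis, stood at 9.99, 7.14 and 11.03 CPM in the apex and 2.76, 1.91 and 6.25 CPM in the leaf, a log2 fold change of -1.37 (SE 0.28, adjusted p = 2.71e-04 by edgeR), and without leaf replicate 3 it was -2.01. SDD1, a protease of the same patterning, went the other way with 0.838, 0.934 and 0.529 CPM in the apex and 2.98, 2.97 and 7.48 CPM in the leaf (log2 fold change 2.53, SE 0.41, adjusted p = 2.73e-05 by edgeR). Both were highest in leaf replicate 3 among leaf libraries. KAT1, a potassium channel of guard cells, stood at 3.42, 4.07 and 3.77 CPM in the apex and 3.76, 3.29 and 2.57 CPM in the leaf and did not pass (log2 fold change -0.22, SE 0.25, adjusted p = 0.422 by edgeR, and -1.05 and past the threshold with library totals). MYB61, the second named gene of the guard cell list, fell from 3.03, 2.80 and 1.59 CPM in the apex to 0.884, 1.17 and 0.893 CPM in the leaf (log2 fold change -1.32, SE 0.34, adjusted p = 0.00208 by edgeR).

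Leaf replicate 3 stood apart over more genes than these. In 114 entries it was at least 2-fold above the mean of the other leaf replicates, against 45 and 39 entries for replicates 1 and 2. Of those 114 entries 66.7% were lower in the leaf than in the apex, where 42.0% of all entries were. For the entries above in replicates 1 and 2 that share was 37.8% and 46.2%. Leaf replicate 3 was at least 2-fold below the others in 159 entries, against 98 and 76. Of the 159 entries 57.2% were higher in the leaf, where 37.1% of all entries were. For the entries below in replicates 1 and 2, 5.1% and 11.8% were higher and 61.2% and 64.5% lower. A large share lower in the leaf was thus also found for entries off in the other replicates. These shares used 0.5 CPM added to each value and describe single libraries. The part of leaf replicate 3 in the results above was not tested beyond leaving it out, which gave 7577 higher and 8524 lower entries.

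**Figure D3:**
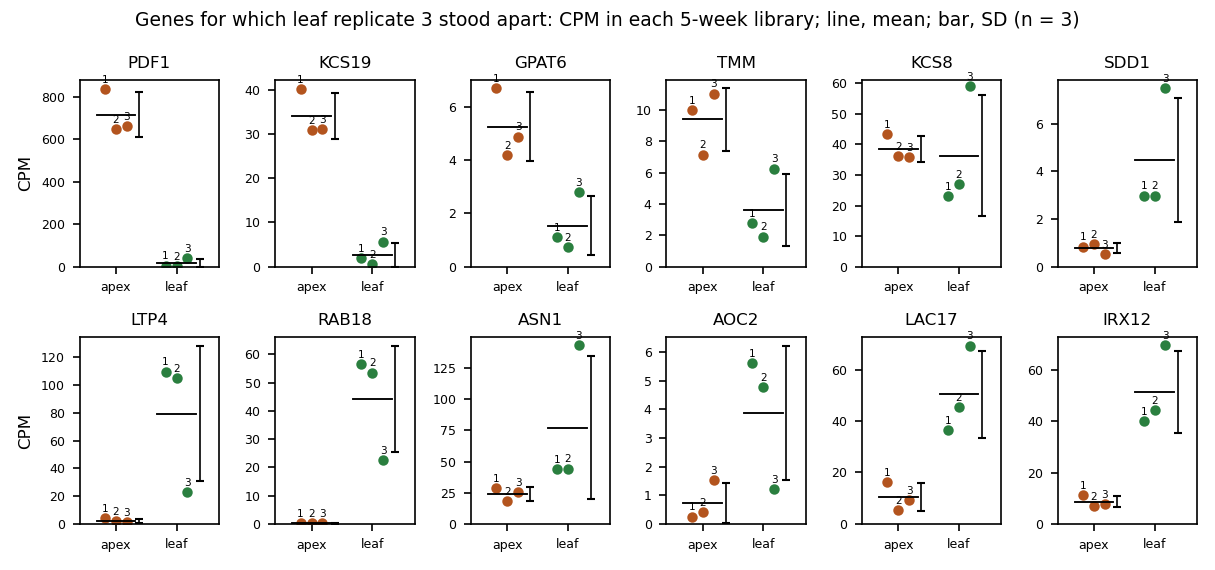
CPM of 12 genes in which leaf replicate 3 differed from the other leaf replicates, chosen after their values were seen, in the 3 apex (brown) and 3 leaf (green) libraries with replicate numbers, means (lines) and SDs (bars, n = 3). Replicate 3 was the highest leaf library for PDF1, KCS19, GPAT6, TMM, KCS8, SDD1, ASN1, LAC17 and IRX12 and the lowest for LTP4, RAB18 and AOC2.

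Flowering genes divided between leaf and apex at 5 weeks. Of 6 tested genes of the flowering list 3 rose and 3 fell, with a median log2 fold change of 0.16. FT (Aa_G437270), the florigen, had no count in the apex and stood at 3.98, 4.67 and 2.57 CPM in the leaf, at least 57.1-fold higher against 3 counts over the apex group (edgeR adjusted p = 3.73e-07). SPL4, which promotes flowering, stood at 0.580, 0.867 and 0.595 CPM in the apex and 7.51, 8.92 and 7.59 CPM in the leaf (log2 fold change 3.54, SE 0.26, adjusted p = 1.80e-09 by edgeR). TEM1, a repressor of FT, also rose, from 13.2, 9.94 and 12.5 CPM in the apex to 35.8, 34.4 and 33.4 CPM in the leaf (log2 fold change 1.54, SE 0.10, adjusted p = 5.25e-10 by edgeR). TFL1 went the other way, with a ratio of apex over leaf of 235 (95% counting interval 64.8 to 1944) and an edgeR adjusted p = 2.15e-12. COL9, of the CONSTANS-like family, stood at 77.8, 62.3 and 74.5 CPM in the apex and 29.4, 34.8 and 27.5 CPM in the leaf (log2 fold change -1.23, SE 0.10, adjusted p = 4.30e-09 by edgeR), and the blue-light receptor FKF1 is given with the clock genes below. BFT, another relative of TFL1, and AG, a floral organ identity gene, had 6 and 19 counts over the leaf libraries and none in the apex, and both were under the expression filter.

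Of 16 genes of the auxin list 11 rose, 4 fell and 1 did not pass, with a median log2 fold change of 2.21, where 57.0% of named genes rose and 28.4% fell. CYP79B2, which rose, and CYP83B1, which fell, are counted again with the glucosinolate genes below. YUC8 (Aa_G182790), an enzyme of auxin synthesis, had no count in the apex and 14.6, 16.7 and 27.9 CPM in the leaf, at least 299-fold higher (edgeR adjusted p = 3.15e-10). TAA1, which acts a step before the YUC enzymes, went the other way, from 17.99, 14.4 and 15.1 CPM in the apex to 9.50, 8.50 and 9.93 CPM in the leaf (log2 fold change -0.77, SE 0.13, adjusted p = 3.98e-05 by edgeR). YUC6, from the same family as YUC8, stood at 6.19, 3.67 and 3.57 CPM in the apex and 1.66, 2.23 and 3.46 CPM in the leaf. Its log2 fold change of -0.87 (SE 0.32, adjusted p = 0.0217 by edgeR) lost the call without leaf replicate 1 or 2 (-0.66 and -0.81) or apex replicate 1 (-0.57).

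The auxin-induced repressors IAA29 (Aa_G395030), IAA1 and IAA19 were all higher in the leaf. IAA29 stood at 0.322, 0.734 and 0.132 CPM in the apex and 96.1, 99.8 and 91.4 CPM in the leaf, and its log2 fold change was 7.89 (SE 0.18, adjusted p = 8.53e-16 by edgeR), and without apex replicate 2 it was 8.65. IAA1 and IAA19 had log2 fold changes of 3.997 (SE 0.14, adjusted p = 1.19e-13 by edgeR) and 3.95 (SE 0.09, adjusted p = 1.15e-15 by edgeR). GH3.1 and ILL5, which act on stored auxin, were also higher. GH3.1, which joins auxin to amino acids, stood at 0.258, 0.133 and 0.727 CPM in the apex and 1.88, 2.02 and 3.46 CPM in the leaf, a log2 fold change of 2.68 (SE 0.51, adjusted p = 1.39e-04 by edgeR), and without apex replicate 3 it was 3.57. ILL5, of the family that frees auxin from such conjugates, stood at 0.0645, 0 and 0.859 CPM in the apex and 32.1, 28.9 and 20.0 CPM in the leaf, a log2 fold change of 6.42 (SE 0.40, adjusted p = 2.57e-10 by edgeR), and without apex replicate 3 it was 9.31. Of the growth-linked SAUR genes, SAUR78 had a log2 fold change of 2.78 (SE 0.15) and SAUR10 one of 3.02 (SE 0.41). For SAUR10, without apex replicate 2 it was 3.62. PILS5, an auxin carrier of the endoplasmic reticulum, fell from 20.4, 21.2 and 16.2 CPM in the apex to 3.76, 4.57 and 2.57 CPM in the leaf (log2 fold change -2.40, SE 0.17, adjusted p = 1.39e-09 by edgeR).

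Ethylene synthesis genes parted. ACS8 (Aa_G95170), an ACC synthase, stood at 0, 0.133 and 0.264 CPM in the apex and 73.0, 68.2 and 64.4 CPM in the leaf, a log2 fold change of 8.93 (SE 0.22, adjusted p = 1.91e-15 by edgeR), and without apex replicate 3 it was 9.82. ACS4 had 2 counts in the apex libraries and 27.7, 31.97 and 38.2 CPM in the leaf, a ratio of leaf over apex of 744 (95% counting interval 205 to 6151). ACS6, of the same family, fell from 10.1, 10.5 and 15.5 CPM in the apex to 6.52, 6.37 and 5.69 CPM in the leaf (log2 fold change -0.95, SE 0.18, adjusted p = 1.33e-04 by edgeR). The ethylene receptor gene ERS2 fell too, at -1.04 (SE 0.09, adjusted p = 3.08e-08 by edgeR). ERS1 did not pass, at -0.03 (edgeR adjusted p = 0.768), but with library totals it was lower too, at -0.863. Over the list 5 of 12 tested genes rose and 2 fell, with a median of 0.21, and 5 fell with library totals.

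In the gibberellin list 6 of 9 genes rose and 3 fell, with a median log2 fold change of 1.25, near the 57.0%, 28.4% and 0.90 of named genes. GASA1 (Aa_G618430), of a family of small cysteine-rich proteins that respond to gibberellin, had no count in the apex and 366, 329.9 and 209 CPM in the leaf, at least 4596-fold higher (edgeR adjusted p = 8.21e-13). Its relative GASA6 stood at 0.709, 0.0667 and 0.0661 CPM in the apex and 349, 336 and 290.0 CPM in the leaf, a log2 fold change of 10.11 (SE 0.23, adjusted p = 1.10e-15 by edgeR), and without apex replicate 1 it was 12.05. Other members of the family differed: GASA14 fell from 231, 188 and 192 CPM in the apex to 58.7, 56.5 and 71.0 CPM in the leaf (log2 fold change -1.72, SE 0.10, adjusted p = 1.28e-10 by edgeR). GASA4 was higher in the leaf at 0.66 (SE 0.08, adjusted p = 1.77e-06 by edgeR), which turned to -0.17 with library totals. GA20OX2, which makes gibberellin, rose from 0.451, 0.334 and 0.661 CPM in the apex to 3.87, 4.25 and 5.80 CPM in the leaf (log2 fold change 3.24, SE 0.31, adjusted p = 6.02e-08 by edgeR). GA2OX2, which breaks it down, fell from 6.77, 5.74 and 8.92 CPM in the apex to 3.203, 1.81 and 2.01 CPM in the leaf (log2 fold change -1.61, SE 0.23, adjusted p = 6.58e-06 by edgeR). The DELLA repressor genes RGL2 and RGL3 changed by 1.28 (SE 0.13) and -0.43 (SE 0.10) on the log2 scale.

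Of 4 cytokinin genes 3 rose and 1 fell, with a median log2 fold change of 2.96. CKX3 and CKX5 are oxidases that degrade cytokinin. CKX3 stood at 0.193, 0.534 and 0.529 CPM in the apex and 3.53, 5.20 and 6.36 CPM in the leaf (log2 fold change 3.56, SE 0.38, adjusted p = 2.34e-07 by edgeR). CKX5 stood at 3.61, 5.14 and 4.43 CPM in the apex and 46.1, 46.9 and 38.8 CPM in the leaf (log2 fold change 3.32, SE 0.13, adjusted p = 4.48e-13 by edgeR). PUP14, which takes cytokinin up into cells, had a log2 fold change of 2.61 (SE 0.12). ARR15, a response regulator induced by cytokinin, was the gene that fell, from 16.9, 28.0 and 22.7 CPM in the apex to 7.62, 8.18 and 9.04 CPM in the leaf (log2 fold change -1.44, SE 0.18, adjusted p = 1.86e-06 by edgeR). Among 4 brassinosteroid genes, with a median of -0.10, 1 rose and 1 fell, against 0 and 3 with library totals.

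Abscisic acid genes rose in 9 of 13 cases and fell in 3, against 57.0% and 28.4% of named genes, with a median log2 fold change of 2.25. NCED3, the enzyme that limits abscisic acid synthesis under drought, stood at 1.03, 1.00 and 0.529 CPM in the apex and 17.3, 14.9 and 11.4 CPM in the leaf (log2 fold change 4.07, SE 0.25, adjusted p = 1.82e-10 by edgeR). CYP707A3, which breaks the hormone down, was also higher, at 2.25 (SE 0.37, adjusted p = 3.09e-05 by edgeR), and without apex replicate 3 it was 2.99. The receptor gene PYL5 and ABCG40, which imports abscisic acid into cells, had log2 fold changes of 3.47 (SE 0.26) and 3.78 (SE 0.34). The dehydration-induced genes RAB18 and LEA14 stood at 0.193, 0.400 and 0.198 CPM in the apex and 56.4, 53.5 and 22.7 CPM in the leaf for RAB18 and 0.0645, 0.133 and 0.0661 CPM in the apex and 43.1, 34.9 and 24.9 CPM in the leaf for LEA14, with replicate 3 the lowest leaf library for both. Their log2 fold changes were 7.34 (SE 0.43, adjusted p = 9.61e-11 by edgeR) and 8.46 (SE 0.49, adjusted p = 7.52e-11 by edgeR). ERD5, proline dehydrogenase, fell from 162, 112 and 160.2 CPM in the apex to 5.63, 4.67 and 7.37 CPM in the leaf (log2 fold change -4.62, SE 0.18, adjusted p = 4.64e-13 by edgeR), and the remaining genes that fell, COR27 and COR28, are given with the clock.

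Most named jasmonate genes were higher in the leaf, and AOC3 and JAZ1 were lower. Of 10 tested genes 8 rose and 2 fell, against 57.0% and 28.4% of named genes, with a median log2 fold change of 2.26. LOX2 (Aa_G49590), the chloroplast lipoxygenase that starts jasmonate synthesis, stood at 3.35, 1.33 and 9.84 CPM in the apex and 2088, 2055 and 2027 CPM in the leaf. Its log2 fold change was 8.73 (SE 0.38, adjusted p = 2.31e-12 by edgeR), and without apex replicate 3 it was 9.76. AOS, the next enzyme, stood at 5.93, 4.54 and 6.54 CPM in the apex and 29.4, 24.5 and 14.2 CPM in the leaf (log2 fold change 2.00, SE 0.21, adjusted p = 1.99e-07 by edgeR). OPR1, a reductase related to the later enzyme, stood at 2.51, 2.47 and 2.38 CPM in the apex and 50.8, 50.1 and 38.5 CPM in the leaf (log2 fold change 4.24, SE 0.20, adjusted p = 4.15e-12 by edgeR). The allene oxide cyclase genes went opposite ways. AOC3 fell from 41.6, 43.3 and 51.7 CPM in the apex to 8.73, 8.39 and 7.81 CPM in the leaf (log2 fold change -2.45, SE 0.12, adjusted p = 5.24e-12 by edgeR). AOC2 stood at 0.258, 0.400 and 1.52 CPM in the apex and 5.63, 4.78 and 1.23 CPM in the leaf, with overlapping organs, a log2 fold change of 2.41 (SE 0.60, adjusted p = 0.00152 by edgeR), and without apex replicate 3 it was 3.52. JAZ1, a repressor of jasmonate responses that jasmonate itself induces, fell from 27.9, 35.2 and 55.5 CPM in the apex to 12.4, 10.7 and 6.70 CPM in the leaf (log2 fold change -1.99, SE 0.23, adjusted p = 5.79e-07 by edgeR).

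Defence genes rose in 12 of 20 tested cases and fell in 2, with a median log2 fold change of 0.94, close to the 0.90 of all named genes. With library totals 8 of them were lower. CBP60G and SARD1, transcription factors that switch on salicylic acid synthesis, stood at 0.645, 0.400 and 0.661 CPM in the apex and 10.2, 10.5 and 8.37 CPM in the leaf for CBP60G and 0.580, 0.133 and 0.264 CPM in the apex and 3.65, 3.82 and 3.57 CPM in the leaf for SARD1. Their log2 fold changes were 4.07 (SE 0.30, adjusted p = 1.73e-09 by edgeR) and 3.45 (SE 0.41, adjusted p = 7.36e-07 by edgeR). For SARD1, without apex replicate 1 it was 4.14. EDS5, which exports the precursor of salicylic acid from the chloroplast, fell from 4.90, 4.34 and 4.56 CPM in the apex to 1.99, 1.91 and 1.67 CPM in the leaf (log2 fold change -1.303, SE 0.31, adjusted p = 0.00114 by edgeR). FLS2, the receptor of bacterial flagellin, fell from 36.7, 23.9 and 30.7 CPM in the apex to 10.4, 13.0 and 12.6 CPM in the leaf (log2 fold change -1.34, SE 0.16, adjusted p = 6.78e-07 by edgeR). RPM1, a resistance receptor, had a log2 fold change of 3.19 (SE 0.30). PAD4, a regulator of salicylic acid signalling, did not pass at 0.25 (edgeR adjusted p = 0.127), took the other sign with library totals, at -0.58, and passed without leaf replicate 3 (0.372) or apex replicate 3 (0.462). PR1, the usual salicylic acid marker, had 1 count in the apex and 31 in the leaf and was under the expression filter.

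Of 7 WRKY transcription factor genes 4 rose and 3 did not pass, against 2 that rose and 3 that fell with library totals. WRKY40, WRKY46, WRKY53, WRKY18 and WRKY54 are also counted among the defence genes above. WRKY25 stood at 0.902, 2.00 and 1.65 CPM in the apex and 34.5, 31.2 and 17.64 CPM in the leaf (log2 fold change 4.19, SE 0.29, adjusted p = 9.47e-10 by edgeR). WRKY40 stood at 6.25, 3.74 and 9.58 CPM in the apex and 21.9, 18.5 and 13.2 CPM in the leaf (log2 fold change 1.45, SE 0.24, adjusted p = 4.06e-05 by edgeR). WRKY18, a close relative of WRKY40, stood at 8.44, 10.3 and 18.1 CPM in the apex and 12.3, 12.3 and 11.4 CPM in the leaf and did not pass (log2 fold change -0.03, SE 0.23, adjusted p = 0.901 by edgeR), but was lower and past the threshold with library totals, at -0.863. The TIR-NBS-LRR receptor genes AT3G44630 and AT4G19520, of a large family whose copies may share reads, were chosen after their values were seen. AT4G19520 stood at 0.193, 0.0667 and 0.132 CPM in the apex and 33.8, 43.8 and 30.0 CPM in the leaf (log2 fold change 7.99, SE 0.31, adjusted p = 4.10e-13 by edgeR). AT3G44630 had 3 counts in the apex and 39.3, 36.5 and 30.0 CPM in the leaf, a ratio of leaf over apex of 537 (95% counting interval 183 to 2610.5).

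Glucosinolate genes rose in 10 of 12 cases and fell in 1, against 57.0% and 28.4% of named genes, with a median log2 fold change of 2.66. TGG2 (Aa_G113000), a myrosinase, stood at 3.48, 2.00 and 3.77 CPM in the apex and 2278, 2155 and 2269.5 CPM in the leaf (log2 fold change 9.49, SE 0.19, adjusted p = 4.60e-16 by edgeR). The genes that make aliphatic glucosinolates from methionine rose with it: BCAT4, the first enzyme of chain elongation, had a log2 fold change of 7.72 (SE 0.39, adjusted p = 1.46e-11 by edgeR), and CYP79F1 (Aa_G65470), which makes the aldoxime, one of 7.29 (SE 0.38, adjusted p = 2.41e-11 by edgeR). Without apex replicate 2 these were 8.31 and 7.88. IPMI2, an isopropylmalate isomerase subunit of the same elongation, stood at 4.83, 11.3 and 13.0 CPM in the apex and 184, 201 and 195 CPM in the leaf (log2 fold change 4.32, SE 0.28, adjusted p = 3.15e-10 by edgeR). MYB29 and MYB51, regulators of the aliphatic and the indolic branch, had log2 fold changes of 2.34 (SE 0.23) and 3.73 (SE 0.23).

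The indolic enzyme genes CYP79B2, CYP79B3 and CYP83B1 had smaller log2 fold changes than BCAT4 and CYP79F1. CYP79B2 and CYP79B3, which convert tryptophan, stood at 8.44, 7.94 and 19.2 CPM in the apex and 44.1, 43.2 and 30.9 CPM in the leaf for CYP79B2 and 0.322, 0.334 and 2.51 CPM in the apex and 9.28, 10.3 and 5.58 CPM in the leaf for CYP79B3. In both genes apex replicate 3 was the highest apex library and leaf replicate 3 the lowest leaf library, and the log2 fold changes were 1.73 (SE 0.24, adjusted p = 4.51e-06 by edgeR) and 2.99 (SE 0.46, adjusted p = 1.75e-05 by edgeR). For CYP79B3, without apex replicate 3 it was 4.63. CYP83B1, which acts after them, stood at 66.4, 62.6 and 78.0 CPM in the apex and 58.3, 63.0 and 42.6 CPM in the leaf with overlapping organs. Its log2 fold change of -0.33 (SE 0.11, adjusted p = 0.0131 by edgeR) lost the call without leaf replicate 3 (-0.19) or apex replicate 3 (-0.24).

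**Figure D4:**
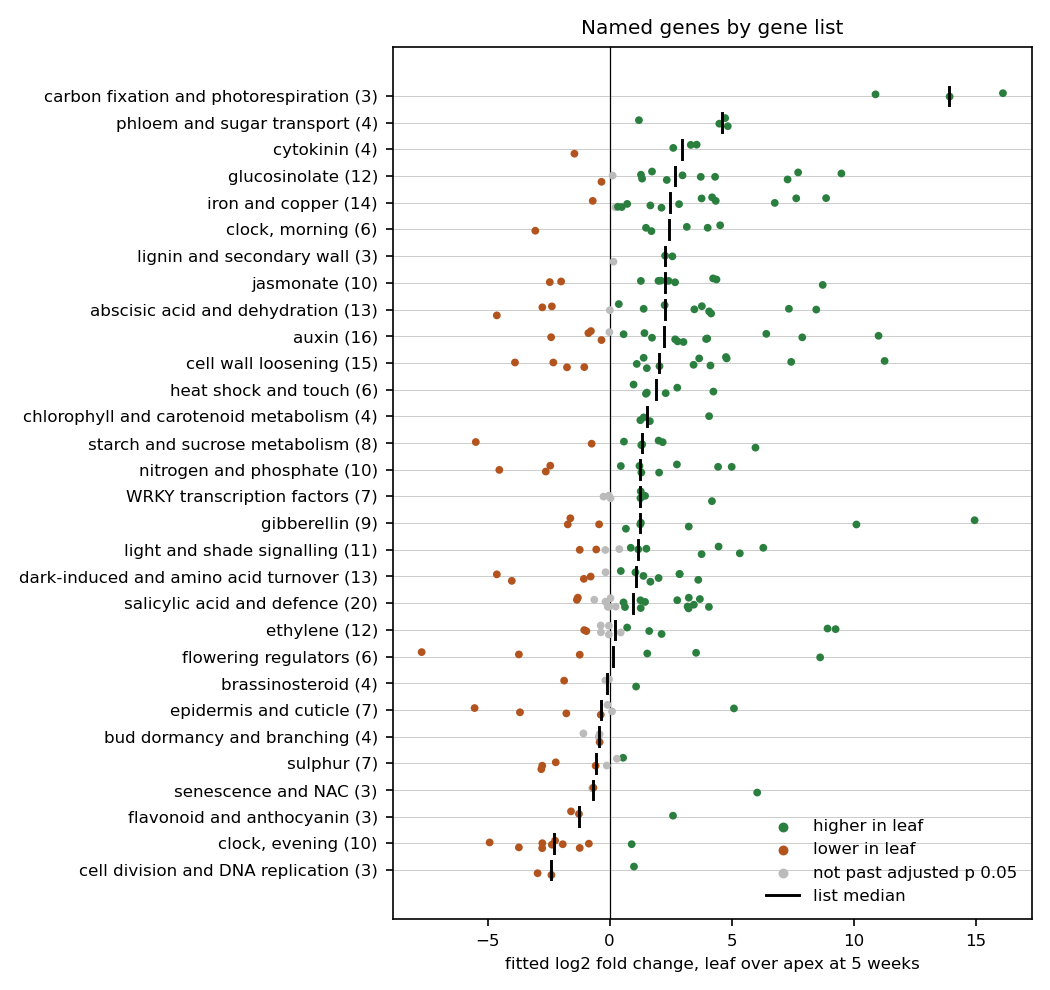
Fitted log2 fold changes, leaf over apex, of the named genes of each list with at least 3 tested genes (number in brackets). Points are genes, green where higher, brown where lower and grey where not past an adjusted p of 0.05, black bars are list medians, and the fitted values of genes without counts in an organ depend on the fit. The medians run from -2.38 for cell division to 13.93 for carbon fixation and photorespiration.

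Clock genes of the evening list were mostly lower in the leaf and those of the morning list mostly higher. In the evening list 9 of 10 genes fell and 1 rose, with a median log2 fold change of -2.30. In the morning list 5 of 6 rose and 1 fell, with a median of 2.44. Of named genes 57.0% rose and 28.4% fell. The authors list ELF4, PCL1, BOA, FKF1, JMJD5, COR27 and COR28 as higher and LNK3, LNK4 and PRR9 as lower in the mutant 5-week apex. These were named partly for their levels in the apex libraries compared here, so their directions are not independent of that choice. TOC1, PRR5 and CCL are listed as higher and CCA1 and LHY as lower in the mutant leaf. Since no harvest time is known, organ and time of day cannot be told apart for the genes of both lists. The same holds for any gene outside these lists whose level changes over the day. TOC1 (Aa_G448830), a repressor at the core of the clock, stood at 139, 102 and 129 CPM in the apex and 27.9, 26.0 and 24.4 CPM in the leaf (log2 fold change -2.24, SE 0.11, adjusted p = 7.93e-12 by edgeR). PCL1, of the evening complex, fell from 24.3, 16.01 and 21.4 CPM in the apex to 4.64, 5.95 and 5.69 CPM in the leaf (log2 fold change -1.92, SE 0.16, adjusted p = 9.60e-09 by edgeR). ELF4 of the same complex changed by -2.76 (SE 0.42, adjusted p = 1.39e-05 by edgeR), and without leaf replicate 1 it was -3.69. BOA, a relative of PCL1, changed by -0.85 (SE 0.24, adjusted p = 0.0037 by edgeR) with overlapping organs.

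The evening genes that respond to light or cold varied widely between apex libraries. FKF1 stood at 14.96, 5.94 and 9.65 CPM in the apex and 0.884, 0.531 and 0.893 CPM in the leaf (log2 fold change -3.72, SE 0.40, adjusted p = 2.70e-07 by edgeR). JMJD5, a histone demethylase gene tied to the clock, stood at 34.9, 6.07 and 12.5 CPM in the apex and 0.663, 0.425 and 0.670 CPM in the leaf, a log2 fold change of -4.92 (SE 0.78, adjusted p = 2.30e-05 by edgeR), and without apex replicate 1 it was -3.98. COR28 had a log2 fold change of -2.76 (SE 0.52). COR27 changed by -2.37 (SE 0.71, adjusted p = 0.00594 by edgeR) with overlapping organs, and without apex replicate 1 it was -1.61, and with limma-voom, at -1.79, the call was lost. Apex replicate 1 was the highest and apex replicate 2 the lowest apex library for FKF1, JMJD5, COR27 and COR28. CCL was the evening gene that rose, at 0.90 (SE 0.14, adjusted p = 1.34e-05 by edgeR), a call lost with library totals at 0.07.

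In the morning list CCA1 (Aa_G177850), a core repressor of the clock, stood at 0.516, 1.47 and 0.727 CPM in the apex and 22.1, 22.1 and 18.6 CPM in the leaf (log2 fold change 4.53, SE 0.26, adjusted p = 9.47e-11 by edgeR). Its partner LHY stood at 6.58, 13.2 and 12.6 CPM in the apex and 30.6, 28.5 and 31.6 CPM in the leaf (log2 fold change 1.49, SE 0.32, adjusted p = 4.47e-04 by edgeR, but 0.65 and not past the threshold with library totals). LNK3 and LNK4, which act with morning factors, had log2 fold changes of 4.02 (SE 0.30, adjusted p = 1.95e-09 by edgeR) and 3.16 (SE 0.28, adjusted p = 2.50e-08 by edgeR), and PRR9 one of 1.71 (SE 0.35, adjusted p = 2.85e-04 by edgeR). In LNK3, LNK4, PRR9, LHY and CCA1 apex replicate 1 was the lowest apex library. RVE2, from the family of CCA1, fell from 6.96, 8.34 and 8.39 CPM in the apex to 1.33, 0.956 and 0.558 CPM in the leaf (log2 fold change -3.05, SE 0.24, adjusted p = 5.20e-09 by edgeR).

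**Figure D5:**
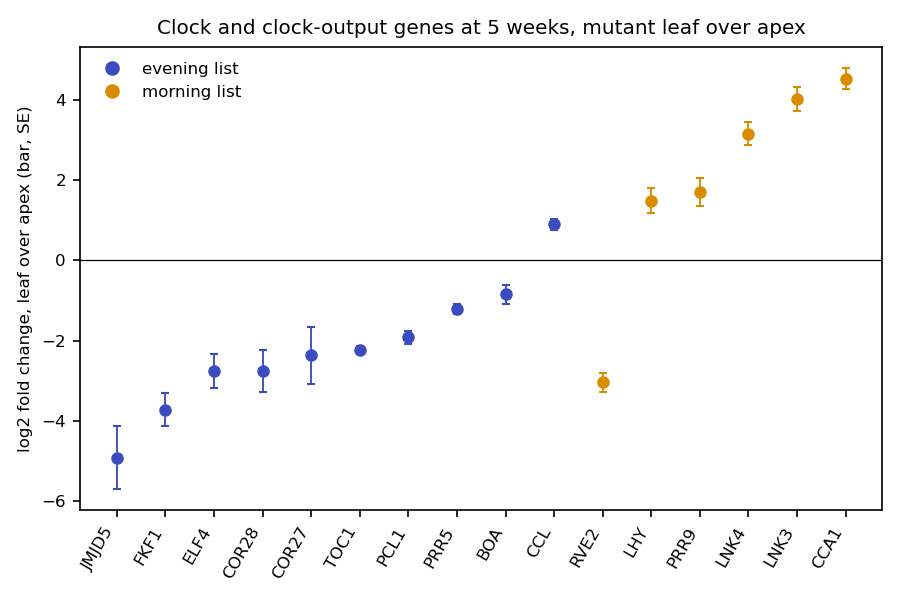
Log2 fold change, leaf over apex, of the 10 evening and 6 morning genes, with SE as bars. Evening genes other than CCL lie below 0 and morning genes other than RVE2 above 0.

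Light and shade genes rose in 7 of 11 cases and fell in 2, with a median log2 fold change of 1.17, near the 57.0%, 28.4% and 0.90 of named genes. The B-box gene BBX17 stood at 0.322, 0.734 and 0.330 CPM in the apex and 36.1, 38.7 and 35.7 CPM in the leaf (log2 fold change 6.29, SE 0.20, adjusted p = 3.40e-14 by edgeR). HFR1, a bHLH protein that restrains the shade response, stood at 0.193, 0.734 and 0.529 CPM in the apex and 11.2, 10.2 and 11.2 CPM in the leaf (log2 fold change 4.46, SE 0.31, adjusted p = 9.77e-10 by edgeR). PHOT1, the blue-light receptor of phototropism, had a log2 fold change of 1.17 (SE 0.11).

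Iron and copper genes rose in 12 of 14 cases and fell in 1, against 57.0% and 28.4% of named genes. Their median log2 fold change was 2.48, and with library totals 4 of them were lower. The list does not hold the iron transporter gene VIT1, which had no count in the leaf and was lower there, as described above. FER1 (Aa_G53890), an iron store of the chloroplast, stood at 83.9, 79.3 and 97.2 CPM in the apex and 600.5, 582 and 685 CPM in the leaf (log2 fold change 2.84, SE 0.10, adjusted p = 1.09e-13 by edgeR). NAS1 and NAS3 make nicotianamine, which carries iron and copper through the plant. NAS1 had no count in the apex and 3.203, 5.84 and 4.24 CPM in the leaf, at least 67.7-fold higher (edgeR adjusted p = 3.63e-06). NAS3 stood at 0.129, 0.133 and 0 CPM in the apex and 18.4, 21.5 and 18.3 CPM in the leaf (log2 fold change 7.64, SE 0.42, adjusted p = 4.06e-11 by edgeR). COPT2, a copper importer, stood at 0.129, 0.467 and 0 CPM in the apex and 26.6, 27.1 and 13.6 CPM in the leaf, a log2 fold change of 6.76 (SE 0.43, adjusted p = 3.30e-10 by edgeR), and without apex replicate 2 it was 8.22. OPT3, which loads iron into the phloem, had a log2 fold change of 1.67 (SE 0.08). CCS, the chaperone that hands copper to superoxide dismutases, was higher at 2.123 (SE 0.07), while CSD1, the cytosolic copper superoxide dismutase, was lower at -0.69 (SE 0.08, adjusted p = 4.81e-07 by edgeR).

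Of 7 tested sulphur genes 4 were lower and 1 higher in the leaf, with a median log2 fold change of -0.57. Of all entries 42.0% were lower, and of named genes 28.4%. SULTR4;2, which empties sulphate from the vacuole, fell from 14.1, 20.9 and 16.8 CPM in the apex to 3.76, 3.82 and 3.57 CPM in the leaf (log2 fold change -2.21, SE 0.17, adjusted p = 4.55e-09 by edgeR). SULTR3;4 and ATSDI1, a gene induced by low sulphur, had log2 fold changes of -2.76 (SE 0.14, adjusted p = 1.46e-11 by edgeR) and -2.80 (SE 0.33, adjusted p = 8.31e-07 by edgeR). APR1, which reduces activated sulphate, stood at 24.0, 63.8 and 54.4 CPM in the apex and 47.6, 48.4 and 34.8 CPM in the leaf and did not pass (log2 fold change -0.12, SE 0.24, adjusted p = 0.657 by edgeR). It passed as lower in the leaf without apex replicate 1 (-0.443) and with library totals (-0.953), and took the other sign without leaf replicate 3 (0.0184) or apex replicate 2 (0.149). Its relative APR2 was higher in the leaf at 0.55 (SE 0.13, adjusted p = 0.00125 by edgeR), which turned to -0.28 with library totals.

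In the nitrogen and phosphate list 7 of 10 genes rose and 3 fell, with a median log2 fold change of 1.26, where named genes had 57.0%, 28.4% and 0.90. IPS1 (Aa_G625620), a noncoding RNA of the phosphate starvation response, stood at 192, 298 and 224 CPM in the apex and 5.41, 8.81 and 17.0 CPM in the leaf, with log2 fold change -4.52 (SE 0.24, adjusted p = 2.35e-11 by edgeR). PHO1;H1, a phosphate exporter, and AAP3, an amino acid importer, had log2 fold changes of -2.43 (SE 0.17) and -2.62 (SE 0.28). NPF2.13, which moves nitrate out of old leaves, rose from 6.00, 6.14 and 3.24 CPM in the apex to 40.4, 37.7 and 25.8 CPM in the leaf (log2 fold change 2.75, SE 0.22, adjusted p = 6.89e-09 by edgeR). The BTB/TAZ gene bt1, which restrains nitrate uptake, stood at 3.61, 4.74 and 6.28 CPM in the apex and 132, 131 and 205 CPM in the leaf (log2 fold change 5.00, SE 0.27, adjusted p = 2.62e-11 by edgeR), the opposite direction to its relative bt5 above.

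Cell wall genes divided within families. Of 15 wall-loosening genes 11 rose and 4 fell, against 57.0% and 28.4% of named genes, with a median log2 fold change of 2.04. Expansins loosen the wall as cells grow. EXPA16 had no count in the apex and 24.9, 20.2 and 25.2 CPM in the leaf, at least 356-fold higher (edgeR adjusted p = 3.28e-11). EXPA8 stood at 17.1, 17.5 and 16.6 CPM in the apex and 307, 312 and 278 CPM in the leaf (log2 fold change 4.13, SE 0.08, adjusted p = 4.35e-16 by edgeR). EXPA20 fell from 44.7, 50.0 and 47.3 CPM in the apex to 2.54, 3.398 and 3.68 CPM in the leaf (log2 fold change -3.88, SE 0.12, adjusted p = 2.66e-14 by edgeR). The xyloglucan-modifying genes XTH30 and XTH33 had log2 fold changes of 4.79 (SE 0.16, adjusted p = 5.31e-14 by edgeR) and 4.76 (SE 0.25, adjusted p = 1.93e-11 by edgeR), and XTH28 one of -1.75 (SE 0.12, adjusted p = 6.23e-10 by edgeR). PME17, a pectin methylesterase, had 45 counts in the leaf and none in the apex, at least 25.0-fold higher.

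The laccase genes IRX12 (LAC4) and LAC17, which polymerise lignin in xylem, were higher in the leaf. IRX12 stood at 11.1, 6.94 and 7.86 CPM in the apex and 40.2, 44.3 and 69.7 CPM in the leaf and LAC17 at 16.3, 5.47 and 9.38 CPM in the apex and 36.6, 45.3 and 69.3 CPM in the leaf, with leaf replicate 3 the highest for both. The log2 fold changes were 2.57 (SE 0.19, adjusted p = 2.05e-09 by edgeR) and 2.27 (SE 0.27, adjusted p = 7.07e-07 by edgeR), and the third tested gene of the lignin list, PRX52, did not pass. Of 3 flavonoid genes MYBL2 rose and FLS1 and TT7 fell, with a median of -1.26, and of 3 genes of senescence and NAC factors 1 rose and 1 fell.

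Of 4 named genes of bud dormancy and branching 1 fell and 3 did not pass, with a median log2 fold change of -0.43, and 3 fell with library totals. DRM2, a dormancy-associated gene, stood at 44.7, 18.1 and 24.8 CPM in the apex and 18.3, 13.7 and 34.2 CPM in the leaf, with overlapping organs, and did not pass (log2 fold change -0.41, SE 0.29, adjusted p = 0.208 by edgeR). It passed without leaf replicate 3 (-0.873) or apex replicate 2 (-0.67), and took the other sign without apex replicate 1 (0.0273). DYL1, its relative, fell, with log2 fold change -0.41 (SE 0.10, adjusted p = 0.00146 by edgeR), and BRC1, which holds back bud outgrowth, did not pass at -0.45 (SE 0.41, adjusted p = 0.323 by edgeR), and without leaf replicate 2 it was -1.23 and passed. In the list of dark-induced and amino acid turnover genes 8 of 13 rose and 4 fell, with a median of 1.06, near the 57.0%, 28.4% and 0.90 of named genes. The genes that fell were BCAT-2, ERD5, GAD4 and MCCA. ASN1, asparagine synthetase, stood at 28.9, 18.1 and 25.7 CPM in the apex and 44.0, 44.3 and 144 CPM in the leaf, with leaf replicate 3 far above the others, a log2 fold change of 1.67 (SE 0.34, adjusted p = 2.62e-04 by edgeR), and without leaf replicate 3 it was 0.86. DIN10 and BGAL4, a beta-galactosidase, had log2 fold changes of 2.00 (SE 0.15, adjusted p = 1.80e-09 by edgeR) and 3.63 (SE 0.16, adjusted p = 2.93e-12 by edgeR), and SEN1 one of 1.38 (SE 0.24, adjusted p = 6.61e-05 by edgeR). BCAT-2, which breaks down branched-chain amino acids, fell from 10.8, 7.81 and 8.19 CPM in the apex to 0.442, 0.425 and 0.781 CPM in the leaf (log2 fold change -4.01, SE 0.37, adjusted p = 4.04e-08 by edgeR).

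The 6 tested heat shock and touch genes, which respond to handling, were all higher in the leaf, with a summed level of 54.8 to 65.7 CPM there and 13.2 to 24.2 CPM in the apex and a median log2 fold change of 1.91. Of named genes 57.0% were higher in the leaf. The part of the heat shock and touch genes in the results on defence and jasmonate genes was not tested.

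Further genes with the largest rises, taken by size of fold, were nearly silent in the apex. SAQR and AT1G23130 had no count there and 15.02, 19.0 and 15.3 and 31.9, 38.8 and 18.3 CPM in the leaf, which is at least 251-fold and 454-fold higher. OPT1, an oligopeptide transporter, and AT1G62510 had 1 count each in the apex, with ratios of leaf over apex of 1732 (95% counting interval 310.2 to 68476) and 1666 (95% counting interval 298 to 65847).

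Several genes that were low at the 5-week apex were higher at the 3-week apex of the mutant, with a smaller gap to the leaf there. The mean of CA1 was 16.9 ± 14.03 CPM at the 3-week apex (SD, n = 3, here and below), that of LOX2 135 ± 42.7, that of bt1 60.4 ± 21.1 and that of GASA6 5.58 ± 1.15, all between the 5-week apex and the leaf. Between the apex ages their adjusted p-values by edgeR were 3.28e-05, 7.61e-08, 7.86e-08 and 7.21e-07. DIN10 with 361 ± 44.3 CPM, SEN1 with 53.7 ± 9.57 and ASN1 with 251 ± 25.7 stood at the 3-week apex above the leaf, although the leaf was above the 5-week apex. TPS9, TPS11, TEM1, GA20OX2, CYP707A3, WRKY40 and CCL, higher in the leaf than in the 5-week apex, did not pass between leaf and 3-week apex. Their log2 fold changes of leaf over 3-week apex were -0.15, -0.03, -0.02, -0.07, 0.40, 0.01 and 0.18. YUC6, ARR15 and FLS2, lower in the leaf than in the 5-week apex, did not pass there either, at 0.35, -0.23 and 0.14. DRM2 stood at 196 ± 20.0 CPM at the 3-week apex. In contrast FT had no count at either apex age, and CCA1 stood at 0.950 ± 0.417 CPM at 3 weeks, against 0.516, 1.47 and 0.727 CPM in the 5-week apex libraries. HB31 stood at 53.7 ± 3.91 CPM and MGL at 339.8 ± 33.5 CPM at 3 weeks, near their 5-week apex levels. The 3-week and 5-week apices are compared with the same leaf libraries, so these gaps are not independent. The authors list CA1, LOX2, bt1, DIN10, SEN1, ASN1, DRM2, TPS9, TPS11, TEM1 and WRKY40, though not GASA6, as higher in the mutant at the 3-week apex. YUC6 is listed as lower there. Those genes were thus named partly for their levels in the 3-week libraries, and their difference between apex ages is not independent of that choice.

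The authors' list of genes changed in the mutant at the 3-week apex was made on none of the 6 libraries. Of 238 tested genes that the authors' deposited table gives as higher in the mutant there, 55.9% were higher and 31.9% lower in the leaf, with a median log2 fold change of 0.96. Of 75 tested genes listed as lower, 25.3% were higher and 53.3% lower, with a median of -1.06. The shares were 37.1% and 42.0% over all entries and 57.0% and 28.4% over named genes, whose median was 0.90, so the genes listed as higher stood near the named genes. Lists made partly on these libraries are given without weight: of 616 tested genes that the authors' deposited table has as lower in the mutant leaf, 67.4% were higher in the leaf than in the apex and 13.8% lower, and of 390 listed as higher in the mutant leaf 48.7% were higher and 40.5% lower. For the 5-week apex, 62 tested genes that the authors' deposited table has as higher in the mutant included 27.4% higher and 51.6% lower in the leaf, and 41 listed as lower included 46.3% and 29.3%.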

How the data were processed

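Polyadenylated RNA of 9 libraries in 3 groups was sequenced as single reads of 100 bases with a directional kit, per the labels' protocols. The authors deposited integer read counts per gene entry. Per the submitters' processing notes the tools were STAR, HTSeq 0.5.4p1, DESeq and DESeq2. Their roles, the genome build and the handling of reads with several matches were not given in the sources used here. Entries for reads without a gene were left out of library sizes. They include reads in no feature (7.94% to 16.3% per library). The authors also deposited lists of genes changed in the mutant, with a fold change (ratio of mutant to control means), its log2 value, an adjusted p-value and normalized mean signal, per the file headers; only their gene names, IDs and direction were used here, and no control library or control mean was analysed here.

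Counts of the 9 libraries were fitted in 1 model with 3 groups in edgeR 4.0.16 (R 4.3.3), with TMM scaling, the edgeR expression filter, the quasi-likelihood F-test and Benjamini-Hochberg adjustment over the 20633 entries kept, at 0.05. The common biological coefficient of variation was 0.0768. The SE is derived from F, as the size of the log2 fold change divided by its square root. A group with no count was given a bound against 3 counts over the group, and a group with 1 to 3 counts the ratio of CPM with a 95% interval, and both cover counting error only. The script was tested on simulated data with 200 changed genes. Alternatives were RLE factors, library totals, no filter, the 6 libraries alone, a replicate block, summed entries of an ID, each replicate left out, DESeq2 1.42.0 and voom of limma 3.58.1. Tables and figures were made in Python 3.11.15 (matplotlib 3.10.9, numpy 2.4.6, pandas 2.3.3, scipy 1.17.1).

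Named genes were the 15 with the largest fold in each direction (adjusted p passed, average log2 CPM of at least 2, organs not overlapping), the 10 with the highest CPM in each organ, members of 35 gene lists, genes without counts in 1 organ and those with the largest spread; others are said to be chosen after their values were seen. From those that met the rule the text gives the clearest examples. The comparison and the lists were chosen with earlier results of these data known. Genes with an Arabis ID only are not named.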

Additional observations from a re-analysis of the deposited data

How the results depend on the processing

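Of 173 tested genes of the text, 154 kept their direction and their side of the threshold under each of the 14 other settings that gave an adjusted p, and 10 took the other sign in at least 1. With 1 replicate left out the count of higher entries ranged from 7393 to 7687 and that of lower entries from 8296 to 8636. It was 8052 and 8199 with RLE factors, 8034 and 9124 without the filter, 7640 and 8096 with the 6 libraries alone, 7631 and 8633 with entries of an ID summed, 8188 and 8108 with DESeq2 and 7660 and 8550 with voom. With library totals it was 4026 and 14239, and the sign turned in WOX1 (-0.58), CER1 (-0.732), GASA4 (-0.168), PAD4 (-0.583) and APR2 (-0.282). All entries moved with that scaling, by the medians given above. When 1 replicate was left out, the log2 fold change lay between -0.621 and 0.153 in KCS8, between -0.0418 and 0.374 in CER1, between -0.115 and 0.0842 in ERS1, between -0.249 and 0.352 in WRKY18, between -0.443 and 0.149 in APR1 and between -0.873 and 0.0273 in DRM2. ERS1 also turned to 0.0262 with RLE factors and 0.0183 with DESeq2, and WRKY18 to 0.0279 with RLE factors, 0.0195 with DESeq2 and 0.0495 with voom. Of these 10 genes GASA4 and APR2 passed in the reported fit, and the cause of the turns was not tested. Leaf and apex libraries of the same number did not deviate together, with correlations of -0.041, -0.0177 and -0.0701. Those of other numbers lay between -0.034 and 0.0642. Such correlations between organs cannot show whether libraries of the same number came from the same plants. With the number as a replicate block 7583 entries were higher and 8531 lower. The floor of 3 counts is 0.0657 CPM over the apex group and 0.109 CPM over the leaf group, so a gene without counts may lie below this level.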
